A study of Drosophila melanogaster with 6 samples.

Results

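Kc-167 cells that had received a control double-stranded RNA give the baseline transcriptome described here. Kc-167 is an established Drosophila melanogaster line that was derived from embryos and is widely used for RNA interference. The members are the 3 arrays of 6 whose titles name the control treatment, and the other 3 arrays, from cells given double-stranded RNA against Enigma (CG9006, symbol Egm), were not used. The control RNA targeted bacterial beta-lactamase, which has no counterpart in the fly, so these are treated cells and not untouched ones. Cells took up 20 µg of double-stranded RNA over 1 h without serum and were harvested on day 5. Total RNA prepared with TRIzol, 8 µg per sample, was labelled with biotin and hybridised to Affymetrix arrays. The labels do not say that the 3 replicates came from separate cultures, so each SD measures the spread between these arrays, which may be technical. The line is a single source of cells, and no array of another tissue stands beside it.

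Haemocytes are the blood cells of the fly. Plasmatocytes, the most common class, engulf microbes and dying cells and lay down basement membrane, crystal cells carry the prophenoloxidases that make melanin, and lamellocytes wrap large parasites. The GATA factor Serpent (srp) specifies haemocytes in the embryo, and the scavenger receptor Croquemort (crq) and the Nimrod receptors NimC1 and eater take part in engulfment. Kc cells are generally described as resembling embryonic haemocytes.

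The deposited values are log2 expression levels made with GCRMA, a method that corrects background, normalizes between arrays and combines the probes of a set. On the control arrays they ran from -0.31 to 14.30. After the control probe sets and the probe sets without exactly 1 gene had been left out, 10843 genes remained, each represented by its probe set with the highest mean. A gene is called detected here where it lay above log2 4 on all 3 arrays. Of the 1209 genes with over 1 probe set, 427 had probe sets that disagreed on this call. Of the 10843 genes, 5484 were detected, which is 50.6%. The median level was 4.15 over all genes, 6.28 over detected genes and 3.12 over the rest. The 23 control probe sets for bacterial, mouse or yeast sequences, which have no matching RNA in these samples, lay between 2.17 and 3.87 with a median of 2.75, so none reached the threshold. Probe sets differ in how strongly they respond to the same amount of RNA. The order of genes by level is therefore a description of signal, not of molecules, and a gene below the threshold is one whose probe set was not told apart from background.

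**Figure D1:**
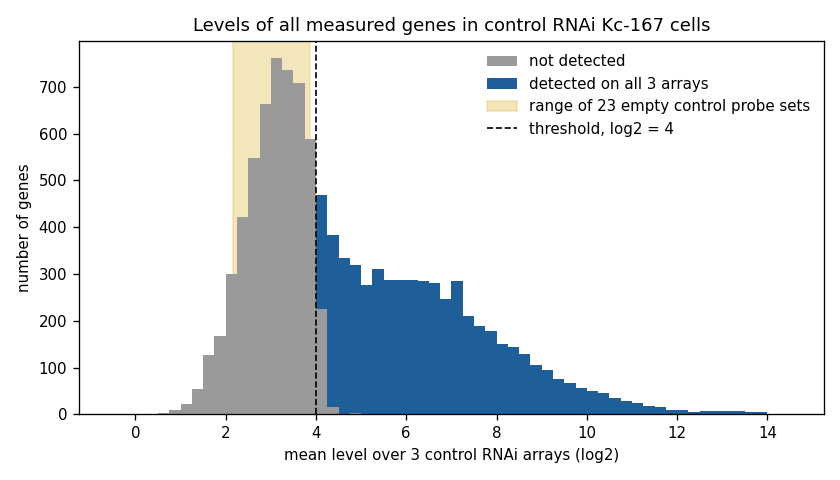
Histogram of the mean log2 level of the 10843 genes over the 3 control arrays (x axis, log2 GCRMA level; y axis, number of genes), with the threshold of 4 and the range of the 23 empty control probe sets marked. Most genes that were not detected sit over the range of the empty probe sets, and a long right tail reaches 14.

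The distribution thinned quickly with level. Below 4 lay 5112 genes, 2669 lay between 4 and 6, 1962 between 6 and 8, 824 between 8 and 10, 224 between 10 and 12, and 52 at 12 or above. Genes known only by a CG or CR number made up 52.3% of the class below 4 and 39.8% of the class from 4 to 6. They made up 7.59% of the class from 10 to 12 and 5.77%, or 3 genes, of the highest class. The threshold fell in a crowded range: 1261 detected genes had a mean below 5, 3985 genes (36.8%) lay above 5 on all 3 arrays, and 459 genes exceeded 4 on only 1 or 2 arrays. Just inside it, fid had a mean of 4.06 ± 0.06 and emp, a scavenger receptor gene, 4.05 ± 0.04, each with its lowest array barely above the threshold. Just outside it, CG5509 had a mean of 4.10 ± 0.11 and Nmdar1, a glutamate receptor subunit gene, 4.11 ± 0.10, each with array 1 barely under the threshold.

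The targeted gene of the study was itself expressed in control cells. Egm, an acyl-CoA dehydrogenase family gene, measured 6.00, 6.41 and 6.71 on control arrays 1, 2 and 3, a mean of 6.38 ± 0.36 (SD, n = 3). Array 1 was lowest and array 3 highest, and all 3 lay near the median of the detected genes.

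Genes of the cytosolic ribosome held the top of the list. They were 19 of the 30 genes with the highest means and 26 of the highest 100. RpS26, a small-subunit protein, was first with 13.91, 13.98 and 14.04, a mean of 13.98 ± 0.06 (SD, n = 3). RpL36A followed at 13.81 ± 0.04, RpS20 at 13.77 ± 0.10 and RpL27 at 13.64 ± 0.01. The arrays differed little for these genes, and neighbours in the order such as RpS30 at 13.55 ± 0.07 and RpS7 at 13.52 ± 0.09 did not differ beyond their spread. Of 88 genes whose symbols mark them as cytosolic ribosomal proteins, 33 were measured by a probe set with a single gene and 30 of these were detected, with a median of 12.97. The 3 not detected were RpS10a, RpS28a and RpL10Aa, each a second gene copy of a ribosomal protein. RpL10Aa had a mean of 4.13 and lay under the threshold on array 1 alone, at 3.98. Other genes whose symbols mark a pair were detected: RpS19b at 7.30 ± 0.28, RpL37-2 at 5.17 ± 0.09 and RpS5b at 4.18 ± 0.04. RpS28b, the other copy of RpS28, measured 13.37 ± 0.10, and RpL10Ab measured 12.79 ± 0.16.

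The other 11 of the highest 30 genes included genes of translation, ubiquitin, protein folding and energy supply. The RNA helicase eIF4A, which unwinds the 5′ ends of messenger RNAs, was second of all genes at 13.89 ± 0.12, lowest on array 1. Translation factor eEF5 measured 13.13, 12.45 and 12.87. The polyubiquitin gene Ubi-p63E measured 13.47, 13.43 and 13.65, so its arrays lay close together. Ubi-p5E stood at 13.17 ± 0.08, on a probe set that Affymetrix marks as shared within a gene family, so its signal cannot be assigned to that gene alone. Tctp, a small conserved protein linked to growth, had a mean of 13.29 ± 0.09. The constitutive chaperone Hsc70-4 measured 13.11, 12.94 and 13.09, and the prolyl isomerase Fkbp12 measured 13.30, 13.01 and 12.58. Fkbp12 had the widest spread of the 30, with an SD of 0.36. Akap200, which anchors protein kinase A, measured 13.54, 13.04 and 13.06, highest on array 1. The splicing regulator Hrb98DE had a mean of 12.83 ± 0.18, and sesB, the mitochondrial ADP/ATP carrier, 12.81 ± 0.21. CG15784, which carries no name, measured 12.88, 13.11 and 12.46. Among the 30 probe sets with the highest signal, 21 had no gene or several genes in the annotation used here and are not in this order, so it covers only the genes that could be named.

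Markers of plasmatocytes and of haemocytes in general were split. Of 25 measured markers, 17 (68.0%) were detected, beside 50.6% of all genes, and the list's median was 7.69 beside 4.15 over all genes. Of the 17, 5 had means of 10 or more, a level reached by 2.55% of all genes. The 17 detected genes were mostly secreted and matrix products. Of the engulfment receptors, drpr was detected, on 1 of its 2 probe sets, and crq, NimC1, NimC4 and eater were not. A bulk RNA level does not tell fewer cells of a type from less RNA per cell.

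Hml, the haemocyte clotting protein Hemolectin, had the highest mean of the list, with 11.48, 10.93 and 10.61. SPARC, a collagen-binding matrix protein, measured 11.64, 10.67 and 10.13, and the platelet-derived growth factor receptor homologue Pvr, which haemocytes need for survival and migration, measured 10.66, 9.79 and 10.13. Array 1 was the highest for all 3 of these genes. The laminin subunit LanA measured 11.17, 10.65 and 10.98, and LanB2 10.65, 10.26 and 10.54. LanB1, the remaining subunit of the list, had a mean of 9.78 ± 0.45. The matrix and adhesion proteins Glt, Ppn and Tig had means of 9.79 ± 0.79, 9.35 ± 0.84 and 8.11 ± 0.55. The collagen IV chains were the most variable. Col4a1 measured 9.78, 7.65 and 7.41, and vkg, the partner chain, 9.28, 7.27 and 6.53. Array 1 thus lay at least 2 log2 units above array 2 for both chains. Pxn, the matrix peroxidase used to mark haemocytes, measured 6.47, 5.10 and 5.10, and was likewise highest on array 1.

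The transcription factors of the list were present apart from the glial cells missing genes. The Serpent gene srp measured 8.48, 7.86 and 7.75, and zfh1, a zinc finger homeodomain factor, 10.17, 9.55 and 9.35. The Friend-of-GATA partner ush was nearly constant at 5.82, 5.83 and 5.83. Both gcm, with a mean of 3.16, and gcm2, with 3.24, were not detected; they act early and for a short time in the plasmatocyte lineage. The engulfment receptor drpr (Draper) was detected at 7.67, 7.41 and 7.53, while its second probe set had a mean of 3.15. Other receptors that mark mature plasmatocytes were not: crq measured 3.49, 3.61 and 3.56, NimC1 3.40, 3.53 and 3.49, and eater 3.90, 3.99 and 3.85. For Sr-CI, a scavenger receptor, the values were 3.90, 4.06 and 3.95, so 1 of its 3 arrays crossed the threshold. NimC4 and the protease Mmp2 had means of 2.61 and 2.41. By these markers the cells carried the srp factor and the matrix products of haemocytes without a detected signal for crq, NimC1 or eater.

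**Figure D2:**
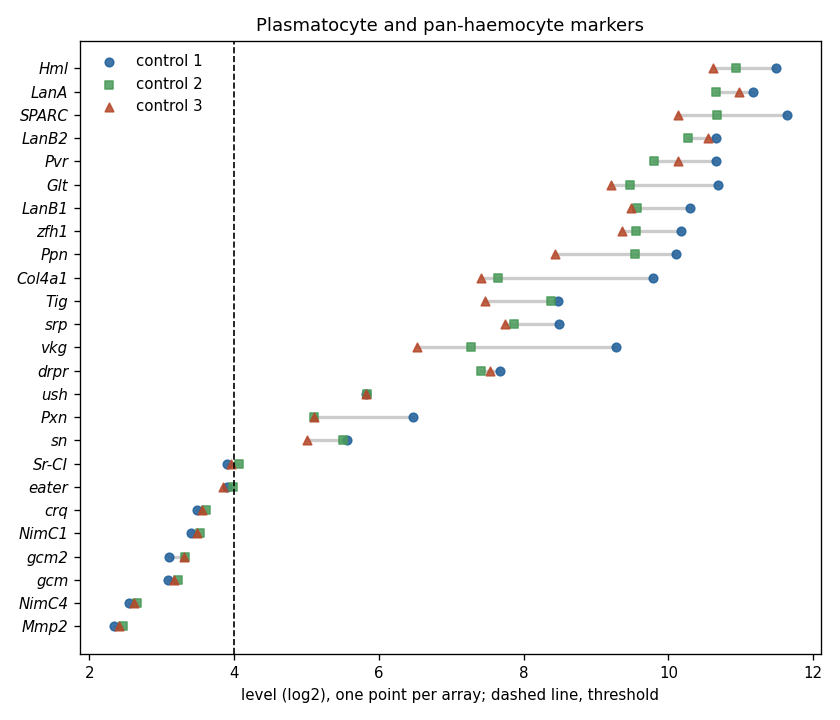
Log2 level of the 25 measured plasmatocyte and pan-haemocyte markers (y axis, genes) on each of the 3 control arrays (x axis, log2 GCRMA level; circle, square and triangle for arrays 1, 2 and 3; grey line, range; dashed line, the threshold of 4). Matrix and secreted genes fill the right side, with array 1 the rightmost point for 16 of the 17 detected genes, and crq, NimC1, eater and gcm lie left of the line.

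A wider list of basement membrane and matrix genes, added after levels had been seen, shares 10 detected members with the haemocyte markers. The list is thus not independent of those markers. It had 12 of 17 measured genes (70.6%) detected and a median of 8.28, beside 50.6% and 4.15 over all genes. Enzymes that modify collagen were among the detected genes. The lysyl hydroxylase Plod measured 10.79, 10.67 and 10.85 and the prolyl hydroxylase PH4alphaEFB 9.42, 9.02 and 9.05. Other structural parts of basement membrane were not detected: trol (perlecan) had a mean of 3.16, Ndg (nidogen) 3.03 and the laminin chain wb 2.88. Among secreted haemolymph proteins, 8 of 15 (53.3%) were detected, a share near the 50.6% of all genes, with a median of 5.42. That list was also added after levels had been seen. Idgf6, a chitinase-like growth factor, measured 11.59, 10.29 and 9.91 and was highest on array 1. Idgf3 measured 9.87, 9.98 and 9.09, and the ferritin chains Fer1HCH and Fer2LCH had means of 10.32 ± 0.24 and 10.42 ± 0.21. Tsf1, the main iron carrier of haemolymph, was not detected, at 1.76, nor was the clotting protein gene fon, at 3.03. Idgf2, Idgf4 and Idgf5 were also below the threshold, so the chitinase-like family was split within itself.

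The lists of the other haemocyte classes are short, and their counts ranged from below to near the 50.6% of all genes. In the crystal cell list 1 of 5 genes passed, with a median of 3.57: the RUNX factor lz measured 4.06, 4.14 and 4.17, just over the threshold, and the prophenoloxidases PPO1 and PPO2 had means of 3.57 and 3.44. In the lamellocyte list, with a median of 5.50, 3 of 6 passed, namely the integrin subunit mys at 9.25 ± 0.07, the kinase msn at 8.27 ± 0.27 and the filamin cher at 7.15 ± 0.32, all of which many cell types use. The lamellocyte surface protein atilla, at 3.46, and PPO3, at 1.91, were not detected. In the list of lymph gland progenitors and niche, 4 of 7 genes passed, with a median of 4.16. Tep4, a thioester protein of progenitors, measured 10.29, 10.53 and 8.79 and was lowest on array 3. The peptidase Ance stood at 8.04 ± 0.31 and the cytokine receptor dome at 7.16 ± 0.12, while the niche factor kn (Collier), at 3.13, was not detected. A second dome probe set had a mean of 3.29.

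Markers of other lineages were mostly at background. The 13 lists other than the plasmatocyte one held 131 measured genes, of which 33 were detected, 12 of them with a mean below 5. These totals include the crystal cell, lamellocyte and lymph gland lists above, with 1 of 5, 3 of 6 and 4 of 7 detected. Over all genes 50.6% were detected. Outside the haemocyte lists the list medians ran from 2.84 in trachea to 3.84 in glia, each under the 4.15 of all genes. No salivary gland marker of 7 passed, with a median of 2.94 over the list. In the fat body list 2 of 10 passed, and the storage protein gene Lsp2, at 2.38, and the yolk protein gene Yp1, at 2.55, were not among them. The gluconeogenic enzyme Pepck1 did pass, with 4.84, 5.85 and 6.69, lowest on array 1. Gut epithelium had 2 of 12 genes detected, the protease gene Jon65Aiii at 4.22 ± 0.03 and mex1 at 4.16 ± 0.11. Imaginal epithelium had 2 of 13, the homeodomain factor ct at 5.00 ± 0.13 and the BMP ligand dpp at 4.91 ± 0.18, and the appendage factor Dll and the eye factors ey and dac, with means of 2.31, 1.29 and 1.22, were among the rest. In testis 1 of 12 passed, mia at 5.66 ± 0.09, and the sperm genes dj and Mst84Da had means of 2.54 and 2.09. A second mia probe set had a mean of 3.14. In trachea 1 of 6 passed. The passing tracheal gene was the fibroblast growth factor bnl at 6.63 ± 0.23, which signals to tracheal cells, while its receptor btl had a mean of 2.24. Neuron markers passed for 2 of 14 genes. They were the active zone protein gene brp, at 5.28, 5.44 and 4.99, and the RNA-binding protein gene elav, at 4.20, 4.73 and 4.33, and nSyb and Gad1 were at 2.37 and 1.82. Muscle had 5 of 16 detected, 3 of them with means below 5. Act87E, at 11.61 ± 0.04, and Act79B, at 7.92 ± 0.03, are near-identical in coding sequence to the cytoplasmic actins. The Act87E probe set is marked by Affymetrix as shared within a gene family, so its signal cannot be assigned to that gene alone. How far the Act79B probe set responds to the cytoplasmic actins was not tested. The muscle factors nau and twi had means of 2.65 and 2.00.

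**Figure D3:**
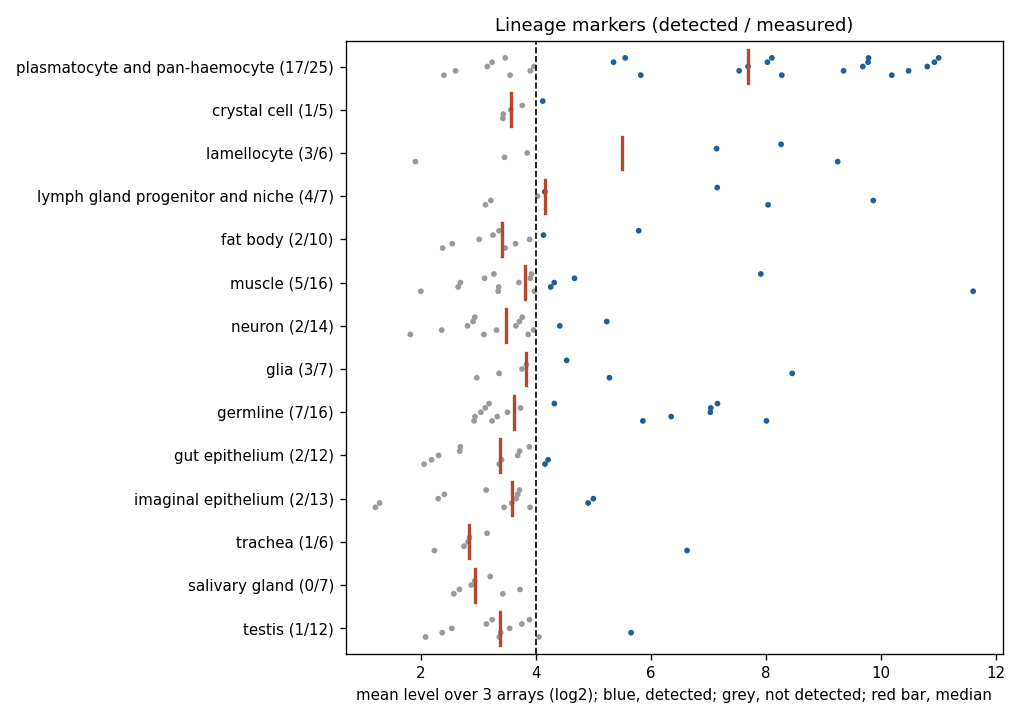
Mean log2 level of each measured marker over the 3 control arrays (x axis; blue points detected, grey points not), by lineage list (y axis, with the number detected of the number measured); red bars are list medians and the dashed line is the threshold of 4. The plasmatocyte and pan-haemocyte list has most of its points right of the line, and the salivary gland list has all 7 left of it.

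The germline list was the largest exception in number, with 7 of 16 detected, still under the 50.6% of all genes. Of the 7, 5 were components of the piRNA pathway, which silences transposons, and 3 other components on the list, piwi, rhi and krimp, were not detected, at 2.93, 3.74 and 3.24. The Piwi-family protein gene aub measured 7.94, 7.70 and 8.40, the helicase spn-E 7.03, 7.07 and 7.04, the helicase armi 6.92, 7.10 and 7.09, and the Tudor protein gene tud 6.73, 7.20 and 7.57. The fifth, del (Deadlock), had a mean of 4.33 ± 0.13. The differentiation factors bam, at 6.36 ± 0.23, and bgcn, at 5.87 ± 0.08, were also detected. The defining germ cell genes vas, at 3.12, osk, at 3.33, and zpg, at 2.95, were not. Among glial markers 3 of 7 passed, led by the regulator of G-protein signalling loco with 8.17, 8.75 and 8.47. A second loco probe set had a mean of 2.35, and the glial identity factor repo had a mean of 3.37.

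Genes that set position in the embryo were mostly not detected, beside 50.6% detected of all genes, with a single strong exception. Of 14 measured segmentation genes only hairy (symbol hry), a pair-rule repressor, was detected at the threshold of 4, at 11.54, 11.51 and 11.64 with the arrays close together. The other 13 included eve at 3.68, bcd at 3.26, ftz at 2.45, Kr at 2.36 and gsb at 2.05. Of 4 measured Hox genes, Dfd was detected at 5.23, 5.35 and 4.98 and Antp at 4.02, 4.32 and 4.14. A second Antp probe set had a mean of 3.22. In the list of sex determination and dosage compensation, 8 of 10 were detected, with a median of 5.73. Sxl, the switch gene of female development, measured 8.34, 8.23 and 8.08. The splicing regulators tra2 and tra had means of 6.32 ± 0.31 and 6.21 ± 0.16. Of the dosage compensation complex that males assemble, mof, msl-1, mle and msl-3 were detected, with means of 6.35, 5.61, 5.06 and 4.65. The gene for the subunit that Sxl represses, msl-2, straddled the threshold without passing, with 3.94 on array 2 and 4.06 on array 3, and dsx had a mean of 3.46. An RNA level on these arrays does not separate the splice forms of Sxl, tra or dsx.

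Of 16 measured receptor tyrosine kinases, 6 (37.5%) were detected, beside 50.6% of all genes, with a median of 3.88. Pvr was the highest, and 3 of the 6 had means below 5. After Pvr came InR at 7.71, 8.10 and 7.85, and the next, Eph, had a mean of 5.30 ± 0.11. Among their ligands 5 of 14 (35.7%) passed, with a median of 3.67. The epidermal growth factor ligand spi measured 11.06, 10.70 and 10.97, while its receptor Egfr measured 3.67, 3.85 and 3.80 and was not detected. For the Pvr ligands, Pvf2 measured 9.18, 9.35 and 9.03, and Pvf1, at 2.19, and Pvf3, at 3.46, were not detected. The BMP, activin and Hedgehog list had 10 of 14 (71.4%) detected and a median of 4.92. The activin-type ligand daw had a mean of 7.60 ± 0.31 and its receptor babo 6.78 ± 0.01, while hh, at 3.66, and the Hedgehog receptor ptc, at 2.14, were not detected. All 7 measured Notch pathway genes were detected, with a median of 6.87. The co-activator mam measured 10.35, 11.16 and 10.49 and the protease kuz, which cuts the receptor, had a mean of 8.40 ± 0.32. A second mam probe set was not detected, with a mean of 3.95. Notch itself, its ligands and all but 1 of the 12 listed Wnt genes were not analysed here. In the JAK-STAT list 4 of 7 passed, a share near that of all genes, with Stat92E at 9.05, 7.61 and 8.40 and dome as above, and the cytokines upd1, at 3.42, and upd2, at 1.97, did not.

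In the Imd pathway of humoral immunity 10 of 13 measured genes (76.9%) were detected, beside 50.6% of all genes, with a median of 6.02. Among them were the nuclear cofactor akirin at 10.65 ± 0.31, the peptidoglycan sensor PGRP-LE at 8.27 ± 0.18, the kinase subunit key at 7.05 ± 0.32 and the NF-kappaB factor Rel at 6.35, 6.59 and 6.60. The 3 Imd genes not detected were imd itself, at 3.97, 4.21 and 4.10, PGRP-LB, with a mean of 3.82, and IKKbeta, with 3.69. PGRP-LC and Tak1 were not measured by a probe set with a single gene. In the Toll pathway 9 of 14 (64.3%) were detected with a median of 4.81, which is closer to the values over all genes. The inhibitor cact measured 9.34, 8.73 and 7.80 and the adaptor tub 8.52, 8.05 and 8.63. The ligand gene spz measured 7.98, 7.60 and 6.12, so arrays 1 and 2 lay above array 3 for cact and spz. The NF-kappaB factors dl, at 3.52, and Dif, with a mean of 4.06 but not all arrays above 4, were not detected. None of 7 measured antimicrobial peptide genes was detected. Their means ran from 1.69 for Mtk to 3.95 for Drs, with a median of 2.71. Of 21 scavenger and phagocytosis receptors 8 passed, with a median of 3.56, 5 of them with means below 5. Besides Tep4 and drpr, only pes, a CD36-family receptor, at 7.57, 6.96 and 6.62, stood above that.

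Genes of the ecdysone response, the steroid pathway for which Kc cells are a classical model, were detected in 9 of 23 measured cases (39.1%). Over all genes the share was 50.6%. The list had a median of 3.79, beside 4.15 over all genes, and 3 of the 9 had means below 5. Eip74EF and Eip75B, also on the list, were not measured by a probe set with a single gene. Genes first described as ecdysone-induced in Kc cells, now named Cth (Eip55E) and MsrA (Eip71CD), measured 11.48, 11.21 and 10.52 and 9.67, 9.25 and 8.85. ImpL2, a secreted antagonist of insulin-like peptides, measured 9.46, 10.68 and 10.41 and was lowest on array 1. The receptor partner usp was detected at 5.59, 5.73 and 5.65. The receptor gene EcR measured 3.00, 3.10 and 3.04, so its probe set stood at background on every array. No hormone treatment is named in the labels of these samples. The hormone synthesis genes dib, shd, sad and spo, with means from 2.48 to 3.63, were not detected.

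Of the machinery for RNA interference, the treatment these cells received, 10 of 11 measured genes were detected, beside 50.6% of all genes. The list had a median of 6.74. Dcr-1, AGO1 and AGO2, also on the list, were not measured by a probe set with a single gene, so nothing is said of them. Dcr-2, the enzyme that cuts long double-stranded RNA, measured 6.99, 6.99 and 7.08, and its partner r2d2 6.09, 5.81 and 5.58. Tudor-SN, at 9.11 ± 0.13, and vig, at 8.98 ± 0.20, both found in the silencing complex, had the highest means of the list. The methyltransferase Hen1, which protects loaded small RNAs, stood at 6.74 ± 0.36. The Dicer partner loqs, at 3.61, was the gene not detected. Outside the list, blanks, which encodes a protein that binds double-stranded RNA, measured 11.63, 12.21 and 12.34 and ranked 52 of all genes by mean; it was picked after its value was seen.

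Most measured genes of DNA replication and mitosis were detected, beside 50.6% of all genes. Several central ones were not measured by a probe set with a single gene, among them Mcm7, PolD1, CycA, Cdk1, stg, polo and aurA. In the DNA replication list 18 of 19 passed, with a median of 6.99. RnrL, the large subunit of ribonucleotide reductase, measured 11.46, 11.32 and 11.24, and the sliding clamp PCNA 10.33, 10.63 and 10.82. The replicative helicase subunits Mcm2, Mcm3, Mcm5, Mcm6 and dpa had means from 5.88 to 7.78. The exception was Orc2, an origin recognition subunit, at 3.12. Of 16 cyclins and mitotic regulators 15 passed with a median of 6.20, among them E2f1 at 8.56, 8.80 and 9.32, the anaphase activator fzy at 8.42 ± 0.14 and CycE at 6.76, 6.85 and 7.27. Array 3 was highest for E2f1 and CycE. In the cell death list 8 of 12 were detected with a median of 5.72, including the initiator caspase Dronc at 5.83 ± 0.25 and its activator Dark at 5.70 ± 0.29, while the death inducers grim, at 3.50, and skl, at 3.59, were not.

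The insulator and Polycomb lists described next were added after levels had been seen. All 10 insulator and boundary proteins were detected, beside 50.6% of all genes. Their means ran from BEAF-32 at 8.29 ± 0.32 to mod(mdg4) at 4.54 ± 0.05, with a median of 5.71. Of 11 Polycomb group genes 9 were detected with a median of 5.03, led by the sugar transferase sxc at 8.45 ± 0.21 and by Pcl at 7.99 ± 0.34. The methyltransferase E(z) measured 5.83, 5.82 and 6.15. The genes Pc, with a mean of 3.76, and Sce, with 3.26, were not detected. Psc passed at 4.58 ± 0.09, and ph-p, ph-d, Su(z)2 and pho were not measured. Of 12 integrin and matrix receptor genes 7 (58.3%) passed, a share near the 50.6% of all genes, with a median of 5.51. The intracellular linkers stck, at 9.69 ± 0.38, rhea (talin), at 8.51 ± 0.10, and parvin, at 8.16 ± 0.05, stood beside the integrin subunit mys. The alpha subunits mew, at 3.82, and if, at 3.80, were not detected, and scb was at 4.20, 4.45 and 4.27. Of 18 epithelial junction genes 13 passed with a median of 5.10, led by p120ctn at 9.25 ± 0.36 and par-6 at 9.24 ± 0.33. E-cadherin (shg), at 3.22, and the apical determinant crb, at 3.61, were not detected.

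Whole families fell on either side of the threshold, which 50.6% of all genes passed. All 66 measured mitochondrial ribosomal protein genes were detected, with a median of 6.91, led by mRpS7 at 9.19 ± 0.10. The 8 CCT chaperonin subunits, which fold actin and tubulin, were all detected with a median of 10.03 and a range led by CCT2 at 12.15 ± 0.08. All 9 COPI and COPII coat genes and all 9 Sm-type splicing proteins also passed, with medians of 8.02 and 9.19. Of 30 aminoacyl-tRNA synthetase genes, 25 passed. All 16 whose symbols do not mark them as mitochondrial were detected with a median of 8.20, and 9 of the 14 mitochondrial ones were, with a median of 4.45. AsnRS, the asparagine enzyme, led at 10.16, 10.19 and 10.16.

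At the other extreme, no odorant or gustatory receptor of 81 measured was detected, with medians of 2.91 over 53 odorant receptors and 3.11 over 28 gustatory receptors. The highest was Or43b, with a mean of 3.95. Jonah and trypsin-type digestive proteases passed in 1 case of 23, with a median of 2.55. Of 92 cuticular protein genes 15 passed, most of them narrowly. Ccp84Ad was the clear exception at 7.17, 7.36 and 7.36, and the next, Cpr64Ac, had a mean of 5.49 ± 0.04. Ionotropic receptors passed for 5 of 43 genes. Ir68a, which in flies belongs to a moisture-sensing receptor, measured 7.34, 8.10 and 7.68, and the other 4 had means below 5. Some other genes named for nerve cells also had high levels. The immunoglobulin protein gene dpr3 measured 9.84, 10.74 and 10.11 while 5 of 27 genes of its family were detected, and, in a family with 3 of 9 detected, the acetylcholine receptor subunits nAChRbeta3 and nAChRalpha1 measured 8.15, 7.32 and 8.12 and 7.44, 6.96 and 6.35.

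**Figure D4:**
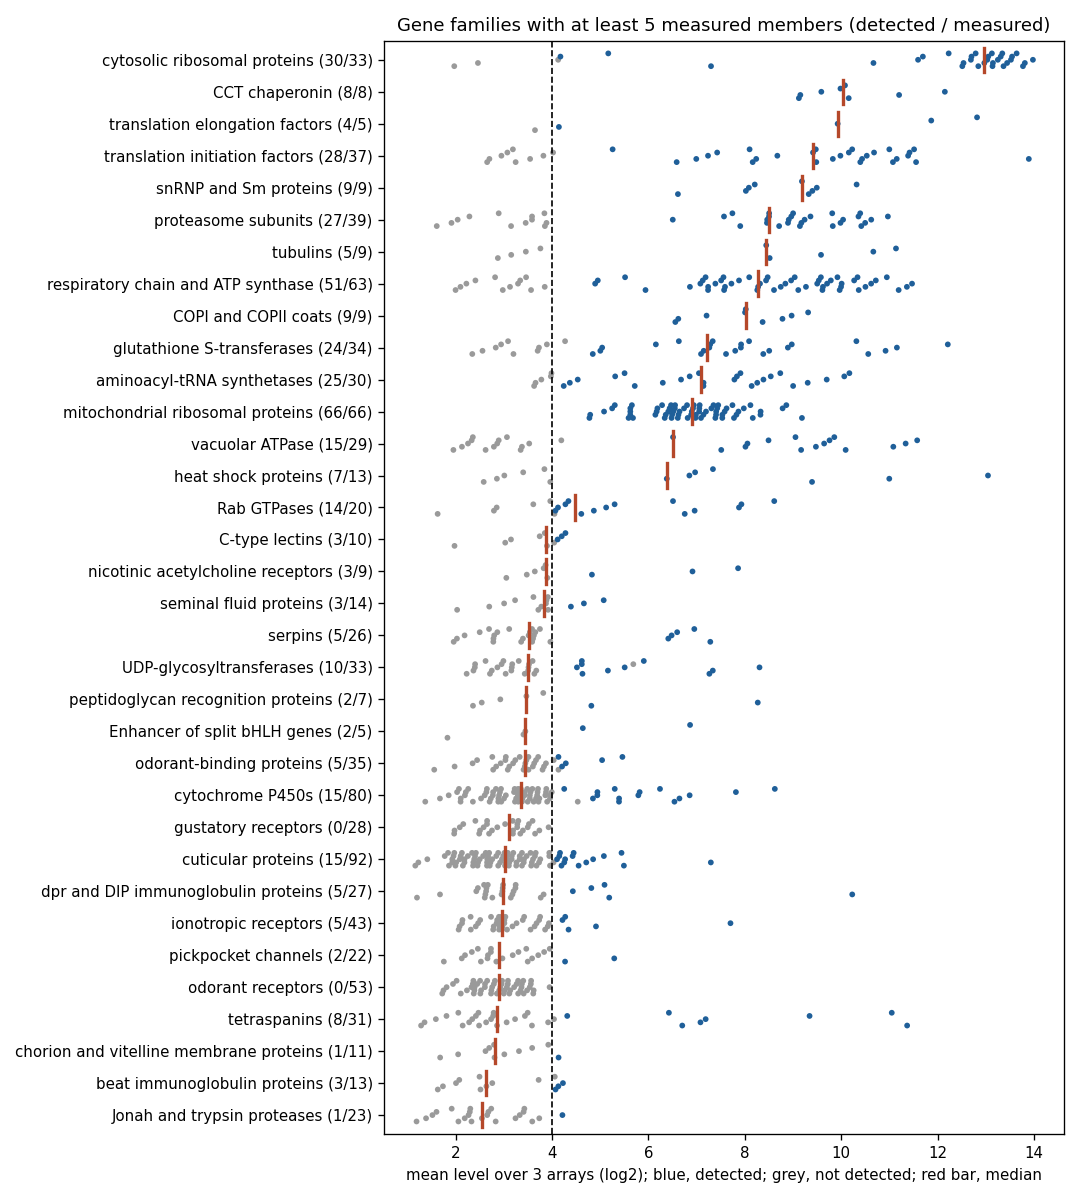
Mean log2 level of each measured gene over the 3 control arrays (x axis; blue points detected, grey points not), for the 34 gene families with at least 5 measured members (y axis, with the number detected of the number measured); red bars are medians and the dashed line is the threshold of 4. The CCT chaperonin, Sm proteins, COP coats and mitochondrial ribosomal proteins lie wholly right of the line, and odorant and gustatory receptors wholly left of it.

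Detoxification families differed from each other in how many members passed, beside 50.6% of all genes. Of 34 glutathione S-transferase genes, which conjugate glutathione to foreign compounds, 24 were detected with a median of 7.21. GstD1 measured 12.56, 12.52 and 11.56, GstE6 11.22, 11.39 and 10.87, and GstD3 11.39, 11.39 and 9.98. Array 3 was the lowest for all 3, and the GstD genes lie in a cluster of similar sequences whose probe sets may share signal. Of 80 cytochrome P450 genes 15 were detected, with a median of 3.37 over all 80. Cyp4e2 led with 8.72, 8.67 and 8.48, followed by Cyp9f2 with 7.78, 8.08 and 7.59. Of 33 UDP-glycosyltransferase genes 10 passed, led by Ugt49B1 at 9.40, 8.51 and 7.01. Tetraspanins, a family of membrane proteins, showed 8 detected of 31 with a median of 2.86. Tsp42Ed measured 11.48, 11.91 and 10.72, Tsp42Ee 11.21, 11.11 and 10.83, and Tsp42El 9.51, 9.28 and 9.24. These 3 belong to the gene cluster whose symbols start with Tsp42E.

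Within families of essential complexes, the genes not detected were mainly second gene copies. In Drosophila many subunits of the proteasome, the respiratory chain, the vacuolar ATPase and the initiation factor eIF3 have a copy that is used in testis. Copies were recognised by their symbols, such as Prosbeta2R1 beside Prosbeta2, by a rule written after these levels had been seen. Of 41 measured copies 5 were detected, with a median of 3.07, while 116 of the 127 other members of these families were detected, with a median of 9.14. For 38 copies the subunit they are named after was also measured, and all 38 of those pairs had that subunit detected. Among proteasome genes 1 of 13 copies and 26 of 26 other members were detected. Prosbeta2, a catalytic subunit, had a mean of 10.40 ± 0.05, and its copies Prosbeta2R1 and Prosbeta2R2 had means of 2.04 and 1.61. In the vacuolar ATPase 1 of 13 copies and 14 of 16 other members were detected, with VhaPPA1-1 at 11.34 ± 0.36 and VhaPPA1-2 at 1.96. For eIF3d1 the mean was 11.07 ± 0.25 and for eIF3d2 2.70.

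The 5 detected copies were Rpt3R, COX4L, COX7AL, ATPsynbetaL and Vha100-2. Vha100-2 measured 6.43, 7.83 and 8.28, beside a mean of 8.06 ± 0.17 for Vha100-1. In 37 of the 38 pairs the subunit lay above its copy on all arrays, and this pair was the exception. For such pairs the rule takes the gene numbered 1 as the subunit, and which gene is the main one was not tested. Rpt3R, a copy of a proteasome ATPase, measured 5.94, 6.41 and 7.17. Array 1 was lowest and array 3 highest for both of these copies. The 3 mitochondrial copies varied less between arrays, with COX7AL at 5.94 ± 0.16, COX4L at 5.52 ± 0.30 and ATPsynbetaL at 4.95 ± 0.15. ATPsynbetaL measured 4.80, 4.96 and 5.10, so its call depends on the threshold.

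**Figure D5:**
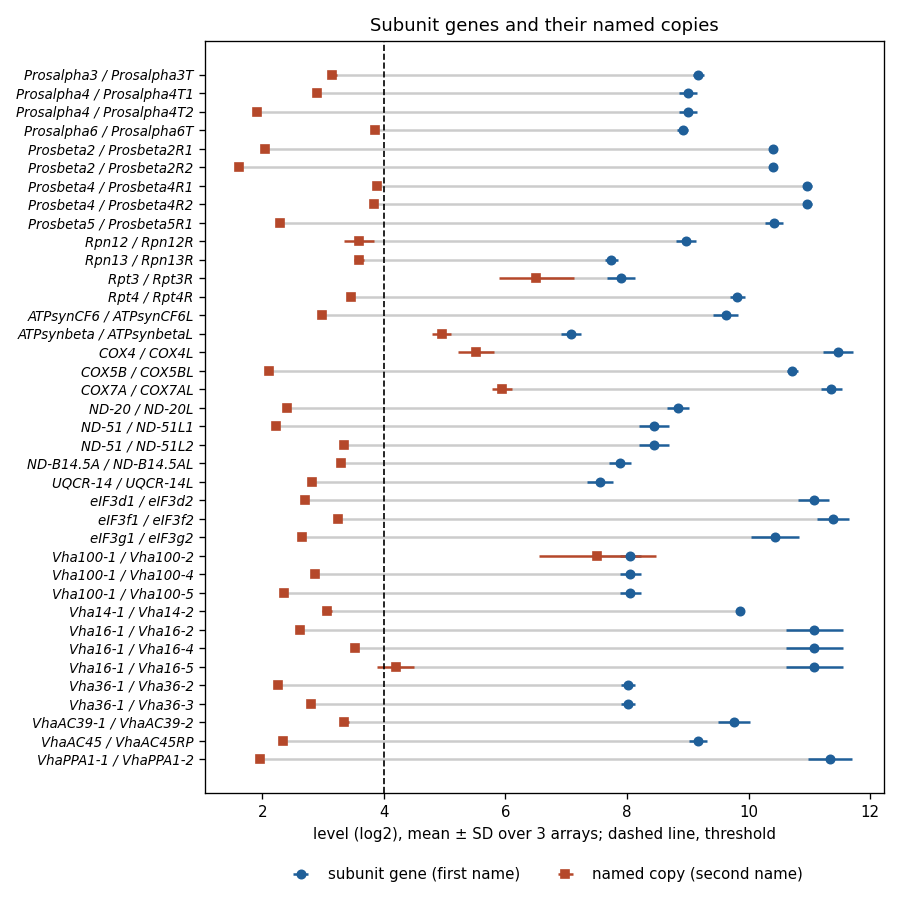
Mean log2 level over the 3 control arrays (x axis; bars, SD, n = 3) of the subunit genes (blue circles) and of the copies named after them (red squares), for the 38 pairs in 4 families (y axis); the dashed line is the threshold of 4. All subunits lie right of the line, and 5 of the 38 copies were detected; Vha16-5, with a mean of 4.19, was under the threshold on array 1.

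The 3 arrays were close but not interchangeable. The SD over the arrays had a median of 0.18 among detected genes and exceeded 1 in 46 genes, or 0.839% of them. No probe set had the same value on any pair of arrays. Of the 46 genes, array 1 lay farthest from the other arrays in 23, array 2 in 4 and array 3 in 19. GstE9 had the largest SD, with 4.85 on array 1 and 8.98 and 9.58 on arrays 2 and 3. Cyp4p1 measured 4.76, 7.62 and 7.24, also low on array 1 alone. The tumour necrosis factor homologue egr measured 6.98, 4.34 and 4.01 and was high on array 1 alone, whereas the carbonic anhydrase gene CAH1, at 7.43, 6.92 and 4.28, and glutamine synthetase Gs1, at 6.83, 6.63 and 4.12, were low on array 3. The galactosidase gene Ect3, at 8.99, 9.09 and 6.31, GstD5, at 7.72, 8.73 and 5.55, and CG3397, at 8.54, 8.15 and 5.06, were also lowest on array 3, and CG6330, at 5.27, 7.97 and 7.86, on array 1.

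Some gene groups were highest or lowest together on a particular array. Among all 5484 detected genes, array 1 was the highest of the 3 arrays in 32.2% and the lowest in 43.7%, and array 3 was the highest in 34.3%. Among the 17 detected haemocyte markers array 1 was highest in 16, and among the 12 detected matrix genes, most of which are shared with that list, in 11. Their medians on arrays 1, 2 and 3 were 10.10, 9.47 and 8.44 for the haemocyte markers. Respiratory chain and ATP synthase genes were highest on array 1 in 35 of 51. Glycolysis went the other way. Array 1 was the lowest in 7 of its 8 detected genes: phosphofructokinase (Pfk), the main control step, measured 6.09, 8.86 and 8.91, aldolase (Ald1) 10.33, 11.82 and 11.68, and enolase (Eno) 10.31, 11.46 and 11.24. DNA replication genes were highest on array 3 in 14 of 18, and cyclins and mitotic regulators in 11 of 15. The difference between 3′ and 5′ probe sets, a measure of RNA integrity, was 1.49, 1.22 and 1.43 for eIF-4a and 2.12, 1.92 and 1.90 for GAPDH on the 3 arrays, largest on array 1 for both, and 0.67, 0.51 and 0.77 for actin, largest on array 3. The part of RNA integrity in these group differences was not tested.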

How the data were processed

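RNA from Kc-167 cells was measured on Affymetrix arrays, and the 3 arrays of the control double-stranded RNA group were used; 3 columns of the other group were left out. The deposited log2 values came from GCRMA, as the submitters' processing notes state; the version used was not given in the sources used here. No label states the scale, which was taken as log2 from the method and from the range of the values. They were used as deposited, with no further scaling and no pseudocount.

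Of 14010 probe sets, 44 control probe sets were left out. By GEO's platform annotation 12442 of the others had a single gene, 327 had several and 1197 had none here, and 12393 were matched to RefSeq (Release 6 plus ISO1 MT) through their Entrez identifiers, for names and gene order only. For the 1209 genes with over 1 probe set, the one with the highest mean was used; the probe sets of 427 of these genes disagreed on detection. A gene was called detected at log2 above 4 on all 3 arrays. Lists are described by the number detected and, for most, the median of the mean levels, to be read against 50.6% detected and a median of 4.15 over all genes. No test was run, since a single group is described. The number of arrays limits the precision, and the spread between them may be technical. Members and lists were chosen with earlier results of these data known. After levels had been seen, 7 lists and some family patterns were added or corrected. The 7 added lists were GATA, RUNX and ETS factors, insulator proteins, the Polycomb group, matrix genes and secreted haemolymph proteins. Named genes were taken from a rule that covers the 30 genes with the highest means, the up to 6 highest and 6 lowest members of each list, the leading members of each family, the 10 genes with the largest SD and the genes nearest the threshold; not every gene it covers is printed, and any other name was picked after its value was seen. Counting was tested on simulated data. The alternatives were other thresholds, 2 of 3 arrays, other rules for genes with several probe sets, quantile normalization and leaving out each array. Python 3.11.15, pandas 2.3.3, numpy 2.4.6 and matplotlib 3.10.9 were used.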

Additional observations from a re-analysis of the deposited data

How the results depend on the processing

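The threshold moved the counts most. At log2 3, 5 and 6 the detected genes numbered 8309, 3985 and 2781, against 5484 at log2 4. The lineage markers detected were 117, 35 and 29 against 50, the pathway genes 275, 155 and 113 against 206, and the family members 668, 340 and 308 against 413. The plasmatocyte and pan-haemocyte list was steadier above the threshold, with 17 detected at log2 5 and 14 at log2 6, and 23 at log2 3, and it kept a count of 17 without any one of the arrays. With at least 2 of 3 arrays required, 5730 genes were detected, and with quantile normalization 5559. Using the mean of a gene's probe sets gave 5305 detected genes and a median level of 4.06 in place of 4.15. Leaving out each array gave 5504 to 5678 detected genes, 50 to 54 lineage markers, 206 to 210 pathway genes, 413 to 426 family members and a median level of 4.12 to 4.19. The median SD of detected genes, 0.179 on 3 arrays, was 0.127 to 0.150 on 2, where an SD has fewer arrays behind it. Segmentation and testis genes, 1 detected in each list, were 9 in each at log2 3 and 1 and 0 at log2 6, and 2 in each without control array 1. No paired analysis was possible because a single group is described and no value comes from a test. A promoter motif search was not run, since no promoter sequences were used here. Signals between 4 and 5 lie close to the empty probe sets, so calls there depend on the threshold, and a gene whose probe set responds poorly can be expressed without being detected.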

Other observations

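The calls of neighbouring genes were alike more often than not. In the gene order of the RefSeq annotation, the next measured gene after a detected gene was detected in 63.4% of 5463 pairs, and after a gene not detected in 37.5% of 5325 pairs. The longest run of genes not detected held 26 genes, with means from 1.47 to 3.97, and included the lipase genes Lip1, Lip2 and Lip4. A run of 19 held 6 odorant-binding protein genes, Obp56a, Obp56c, Obp56d, Obp56e, Obp56g and Obp56h, and the receptor gene Or56a. The longest detected runs held 21 genes each, 1 from Lamtor5 to CG3857 and 1 from mRpS7 to loh, which includes RpS27A. Neighbours can share a family and a probe design, and pairs share members, so these are descriptions.

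Of the 1524 probe sets without a single gene, 773 (50.7%) were detected, and they held 21 of the 30 highest signals on the array. That share counts probe sets, whereas the 50.6% counts named genes by the highest probe set of each.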
